A study of Homo sapiens with 16 samples.

Results

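ADAMTS proteases are secreted enzymes that cut the matrix around the cell, and 9 of their genes were followed across 16 RNA-seq libraries of a human colon fibroblast line: ADAMTS1, ADAMTS2, ADAMTS4, ADAMTS5, ADAMTS6, ADAMTS8, ADAMTS9, ADAMTS10 and ADAMTS12. They were chosen by gene symbol from a table of 40663 symbols that holds 19 ADAMTS genes, and the choice was made with earlier results on these libraries in view, including the low ADAMTS8 counts after belinostat. The values of the 9 genes are therefore given as a description beside the share of all genes that changed, and no p-value is given for ADAMTS8 in comparisons with belinostat. The remaining 10 ADAMTS genes were measured in the same way and complete the family.

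The cells were Ccd18-Co, a fibroblast line from normal human colon, kept to passage 20 at most, and each of 4 groups held 4 libraries. Unstimulated cells (replicates 1 to 4) received no cytokines and DMSO. The other 3 groups had 3 pulses of a cytokine mix (10 ng/ml of TNF, of OSM and of IL-17A, with 0.1 ng/ml of IL-1B), each of 72 h in serum-free medium with 96 h of recovery, then 1 week of rest, and then 5 days of DMSO (vehicle, replicates 13 to 16), 250 nM belinostat (replicates 17 to 20) or 10 µM GSK-J4 (replicates 21 to 24). Concentrations are those of the sample labels. The study's text gives a higher concentration for belinostat and a lower one for GSK-J4. For IL-1B, its figure legend on the compound treatment gives the same 0.1 ng/ml, while its methods for that treatment give a lower value. The doses behind these libraries are therefore uncertain. RNA was taken 2 weeks after the compound in all groups. Belinostat is an inhibitor of histone deacetylases, and GSK-J4 is a cell-permeable inhibitor of the KDM6 histone demethylases. All libraries came from this 1 line. The labels do not say whether replicates were separate cultures from the start, so p-values measure the spread between these libraries, which may be technical.

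ADAMTS enzymes are made as inactive zymogens, lose their propeptide to furin-like convertases and bind the matrix through thrombospondin type 1 repeats. Subgroups differ in what they cut: the hyalectanases cleave versican and aggrecan, the procollagen N-proteinases trim fibrillar procollagens so that fibrils can form, and other members act on the fibrillin microfibrils or on cartilage oligomeric matrix protein. TIMP3 is the main tissue inhibitor of the hyalectanases, and the receptor LRP1 clears ADAMTS5 from the medium. In fibroblasts these enzymes take part in the turnover of provisional, versican-rich matrix and in collagen deposition, both of which change in the fibrotic bowel.

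Libraries held 14418942 to 19476420 estimated counts. All 9 fibroblast markers were detected (COL1A1, COL1A2, COL3A1, PDGFRA, PDGFRB, VIM, THY1, DCN and LUM), while all 4 epithelial and all 3 neural or glial markers averaged under 10 normalized counts, as did 3 of 4 endothelial (all but VWF) and 3 of 4 immune markers (all but CD68). Belinostat replicate 17 stood apart in the share of genes far from its group. Of 11741 genes, 7.97% lay more than 0.5 log2 units from the mean of the other libraries of the group, against 1.22% to 4.32% in the other 15 libraries, and belinostat results are therefore also given without it. By the median distance, replicate 17 did not stand apart: 0.134 log2 units, beside 0.136 and 0.13 in unstimulated replicates 1 and 3. Of the smooth muscle markers, 3 of 3 tested were called higher after GSK-J4 against vehicle, and 1 of 3 (ACTG2, log2 fold change -0.63) was called lower after belinostat. Among the 9 fibroblast markers, 2 were called higher after GSK-J4 (COL1A2 and COL3A1) and 2 lower after belinostat (COL1A1 and PDGFRA). Of all genes, 1.92% were called after GSK-J4 and 6.26% after belinostat, in either direction. The summed counts of DES, MYH11, ACTG2 and CNN1 were 6933.2 to 11548.9 in unstimulated, 8527.6 to 9631.0 in vehicle, 4866.1 to 7132.2 in belinostat and 13975.3 to 14302.2 in GSK-J4 libraries, with DES at no more than 3.24 in any library. The part of these differences in the ADAMTS results was not tested. In bulk RNA, fewer cells expressing a gene and less RNA per cell cannot be told apart.

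Per kilobase of annotated exon, the family was dominated by a pair of neighbouring genes. ADAMTS1, a hyalectanase that also binds VEGF, stood at 4281.8 ± 522.0 normalized counts per kilobase (SD, n = 16 libraries), and ADAMTS5, the main aggrecanase of cartilage, at 2278.8 ± 613.0. ADAMTS2, a procollagen N-proteinase, followed at 549.0 ± 65.9. Of the 9 genes, next came ADAMTS9 and ADAMTS8, both at 123 per kilobase, then ADAMTS10 at 83.9, ADAMTS12 at 69.7, ADAMTS6 at 28.1 and ADAMTS4 at 4.44. Over the 16 libraries the range of ADAMTS1 overlapped that of ADAMTS5, and neighbours in the run from ADAMTS9 through ADAMTS8 and ADAMTS10 to ADAMTS12 overlapped as well, while ADAMTS2, ADAMTS6 and ADAMTS4 each stood clear of their neighbours among the 9. Of the other family genes, ADAMTS7 (277.4 to 581.9 per kilobase) overlapped ADAMTS2, and ADAMTS13 (26.5 to 43.7) overlapped ADAMTS6. The place of ADAMTS8 depended on the group: at 200.0 ± 34.8 per kilobase it was 4th of the 9 in unstimulated cells, and at 34.2 ± 14.7 it was 7th in belinostat cells (SD, n = 4). With the length of the longest transcript in place of all exons, ADAMTS9 (173.0 per kilobase) came above ADAMTS8 (140.0).

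**Figure D1:**
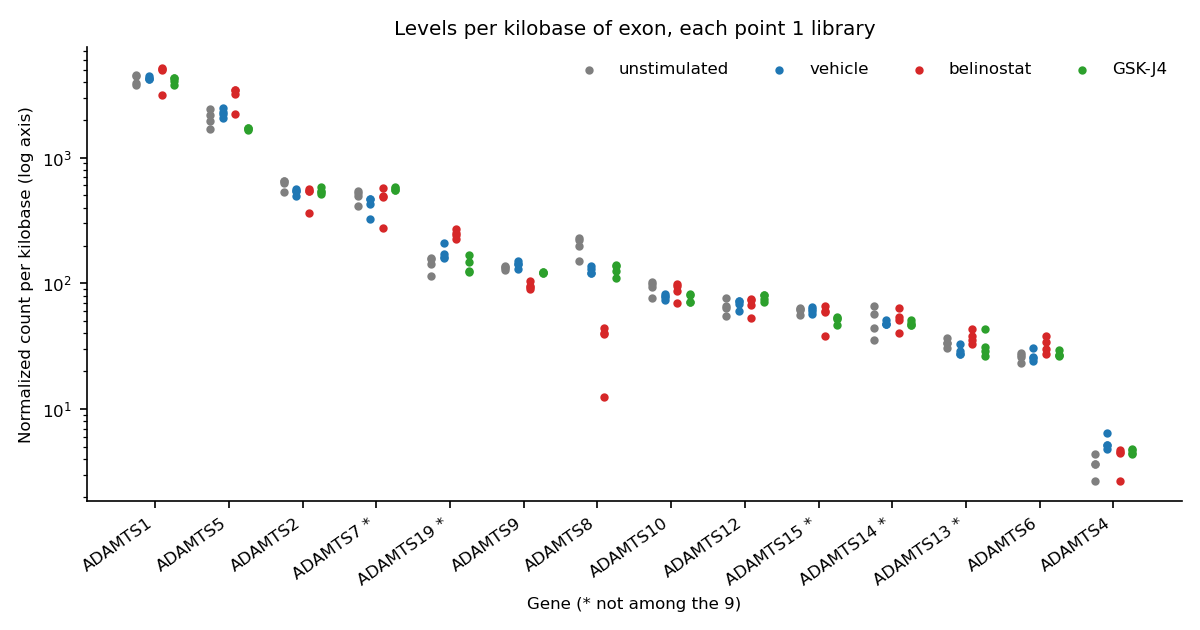
Level of each ADAMTS gene that averaged above 1 normalized count per kilobase of exon (log axis), ordered by its mean, with 1 point per library and colours for the 4 groups; an asterisk marks genes outside the 9. ADAMTS1 and ADAMTS5 lie at the top, ADAMTS4 lies lowest with 4.44 on average, and the belinostat points of ADAMTS8 lie below those of every other group.

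The 9 genes made up 90.4% of the family's counts per kilobase in unstimulated, 91.1% in vehicle, 90.9% in belinostat and 89.0% in GSK-J4 cells. ADAMTS1 and ADAMTS5 alone made up 76.4% (range 75.2% to 77.4%) in unstimulated and 79.2% (78.3% to 80.0%) in vehicle cells. The share of that pair was 82.0% (81.1% to 82.7%) after belinostat and 76.1% (75.2% to 76.9%) after GSK-J4. No library of either compound group overlapped the vehicle range, and the belinostat range lay above it and the GSK-J4 range below it. The procollagen N-proteinases ADAMTS2, ADAMTS3 and ADAMTS14 held 7.08% in vehicle (6.88% to 7.28%) and 5.99% in belinostat cells (5.79% to 6.17%). These shares add up to 100 within a library, so a larger share of one class lowers the others.

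Among the hyalectanases, ADAMTS8 differed most between groups. The gene lies on chromosome 11 (GRCh38, 130404923 to 130428609, minus strand) and encodes an enzyme with weak aggrecanase activity. Unstimulated libraries held 818.4, 952.0, 628.5 and 910.9 normalized counts and vehicle libraries 542.5, 499.2, 502.1 and 574.5. Belinostat libraries held 51.55, 167.3, 184.5 and 163.0, and GSK-J4 libraries 458.7, 572.4, 518.1 and 582.8. Every belinostat library was below every library of the other groups, every unstimulated library was above every vehicle library, and GSK-J4 and vehicle libraries overlapped.

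The mean of ADAMTS8 was 827.5 ± 144.0 in unstimulated, 529.6 ± 35.9 in vehicle, 141.6 ± 60.7 in belinostat and 533.0 counts in GSK-J4 cells (SD, n = 4). Belinostat was 3.75-fold below vehicle (log2 fold change -1.91, SE 0.28) and 5.86-fold below unstimulated cells (-2.55, SE 0.28). Replicate 17 was the lowest library, and without it the log2 fold change against vehicle was -1.63 (SE 0.14). The other 3 belinostat libraries averaged 171.6 ± 11.4.

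ADAMTS8 in vehicle against unstimulated cells did not pass the test, although the libraries did not overlap (log2 fold change -0.64, SE 0.27, 95% interval -1.18 to -0.11, DESeq2 adjusted p = 0.353). A fit on those 2 groups alone gave -0.64 with a DESeq2 adjusted p of 4.03e-05. That fit was the only alternative of 12 that called the gene, and the only one without the belinostat libraries. The other alternatives kept those libraries in the estimate of spread, so they could not show the result without them. For GSK-J4 against vehicle the log2 difference was 0.01, with an interval of -0.53 to 0.55.

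**Figure D2:**
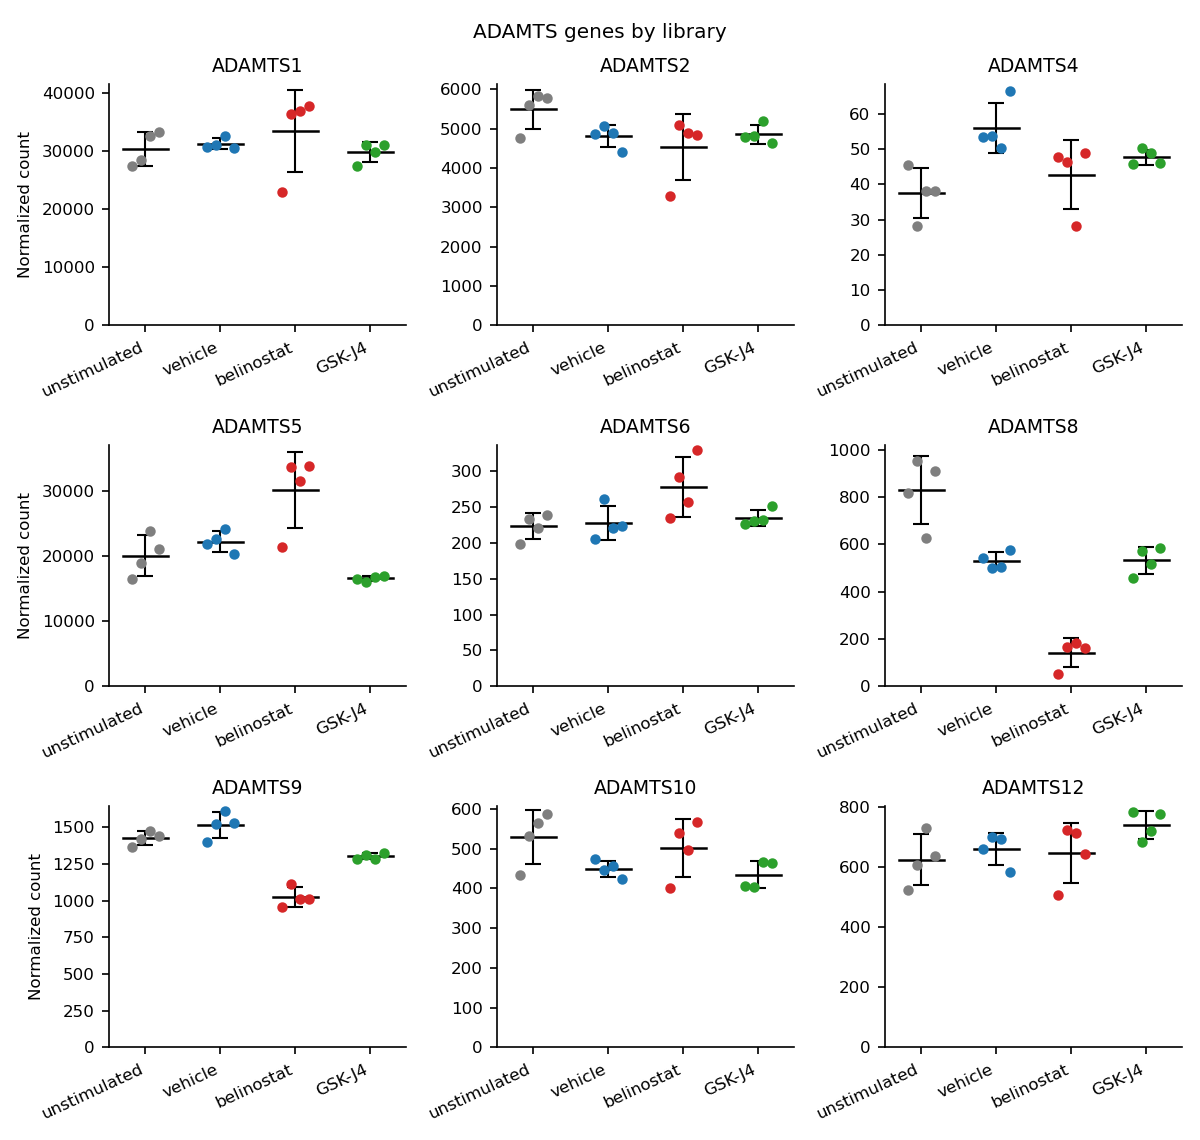
Normalized counts of the 9 genes in each library (points), with the group mean (horizontal line) and SD (bars, n = 4), on linear axes that start at 0. ADAMTS8 lies at 51.55 to 184.5 in belinostat libraries against 499.2 to 574.5 in vehicle libraries, ADAMTS9 is lower in both compound groups, ADAMTS5 is high in 3 of 4 belinostat libraries and has its lowest mean in GSK-J4, and the low point of ADAMTS1 and ADAMTS2 is belinostat replicate 17.

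ADAMTS9, on chromosome 3 (64515654 to 64688000, minus strand), cleaves versican and is widely expressed in development. Vehicle libraries held 1401.1, 1524.5, 1610.5 and 1528.8 normalized counts and unstimulated libraries 1365.6, 1422.5, 1476.3 and 1442.0. Belinostat libraries held 960.4, 1117.3, 1013.0 and 1009.2, and GSK-J4 libraries 1285.6, 1314.7, 1285.2 and 1326.9. The belinostat libraries lay below all others, the GSK-J4 libraries lay between those of belinostat and vehicle, and vehicle and unstimulated libraries overlapped.

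ADAMTS9 was lower after belinostat than in vehicle cells (log2 fold change -0.57, SE 0.06, DESeq2 adjusted p = 2.67e-21) and lower in 4 of 4 libraries than in any vehicle library. It was also lower after GSK-J4 (-0.22, SE 0.05, DESeq2 adjusted p = 0.00724), again in 4 of 4 libraries. These contrasts share the vehicle libraries. In the direct comparison belinostat lay below GSK-J4 (log2 fold change -0.35, SE 0.06, DESeq2 adjusted p = 3.79e-08). The call under GSK-J4 was lost with edgeR (adjusted p = 0.0553), and without vehicle replicate 15 (log2 fold change -0.19) or GSK-J4 replicate 23 (-0.21), with adjusted p up to 0.0797 over all alternatives. Without belinostat replicate 17 the value after belinostat was -0.54 (DESeq2 adjusted p = 2.37e-17).

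ADAMTS5 moved in opposite directions after the compounds. It lies on chromosome 21 (26917922 to 26967088, minus strand). Unstimulated libraries held 16416.6, 18992.5, 23796.6 and 21129.8 normalized counts and vehicle libraries 21817.3, 22668.5, 24124.2 and 20284.7. Belinostat libraries held 21471.2, 33641.9, 31487.9 and 33909.5, and GSK-J4 libraries 16509.2, 16074.3, 16810.9 and 16908.6. All GSK-J4 libraries lay below all vehicle libraries. Belinostat replicates 18 to 20 lay above all vehicle libraries, while replicate 17 lay among them.

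Against vehicle, ADAMTS5 was higher after belinostat (log2 fold change 0.44, SE 0.12, DESeq2 adjusted p = 0.00936) and lower after GSK-J4 (-0.42, SE 0.12, DESeq2 adjusted p = 0.0358). Belinostat exceeded GSK-J4 by 0.86 (SE 0.12, DESeq2 adjusted p = 2.29e-10), and no library overlapped between these groups. Without replicate 17 the log2 fold change after belinostat was 0.57 (SE 0.09, DESeq2 adjusted p = 4.77e-08). That call was lost without vehicle replicate 16 (0.40), belinostat replicate 18 (0.38) or belinostat replicate 20 (0.38), with an adjusted p of 0.0762 at most. The GSK-J4 call of ADAMTS5 was lost with edgeR (adjusted p = 0.155). It was also lost when any library of the 2 groups other than vehicle replicate 16 was left out. Log2 fold changes were -0.46 to -0.38 and adjusted p 1.43e-13 to 0.211 over all alternatives. The call held in the fit on the 2 groups alone, the only alternative without the belinostat libraries. The SD of ADAMTS5 was 5871.9 in belinostat, 1605.7 in vehicle and 375.0 in GSK-J4 libraries. Whether the belinostat spread weakened the other fits was not tested.

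ADAMTS1 lies next to ADAMTS5 on the same strand (26835755 to 26845409), with a gap of 72512 bases between them. Vehicle libraries held 30771.8, 31114.2, 32622.0 and 30611.1 normalized counts, and belinostat libraries 22922.3, 36389.3, 36872.3 and 37841.6. Unstimulated libraries ranged from 27465.6 to 33266.6 and GSK-J4 libraries from 27403.2 to 31084.8. Replicate 17 was the lowest of all 16 libraries, and the other 3 belinostat libraries were the highest. With all 4 the gene was not called (log2 fold change 0.10, SE 0.12, DESeq2 adjusted p = 0.798), whereas without replicate 17 it was 0.24 (SE 0.07, DESeq2 adjusted p = 0.00427).

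ADAMTS4, an aggrecanase known to respond to inflammatory cytokines, had the lowest counts of the 9 genes. Its gene lies on chromosome 1 (161184302 to 161199054, minus strand). Libraries held 28.03 to 45.36 counts in unstimulated, 50.3 to 66.39 in vehicle, 28.05 to 48.8 in belinostat and 45.77 to 50.17 in GSK-J4 cells. All vehicle libraries lay above those of every other group, but no contrast passed the test (vehicle against unstimulated 0.58, SE 0.21, DESeq2 adjusted p = 0.184).

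With all 16 libraries, the remaining 4 genes were not called in any of the 6 contrasts. ADAMTS2 (chromosome 5, 179110853 to 179345461) had 4769.3 to 5826.2 counts in unstimulated, 4414.9 to 5057.5 in vehicle, 3280.3 to 5084.6 in belinostat and 4638.0 to 5188.4 in GSK-J4 libraries, and the lowest value was again replicate 17. Its largest difference was belinostat against unstimulated cells (log2 fold change -0.28, SE 0.11, DESeq2 adjusted p = 0.0784). Without replicate 17 this was -0.15 (DESeq2 adjusted p = 0.155). It was called without unstimulated replicate 1 or belinostat replicate 18 (-0.34 in each, lowest DESeq2 adjusted p 0.0307). ADAMTS12 (chromosome 5, 33523535 to 33892019), which cleaves cartilage oligomeric matrix protein, ranged from 508.9 to 783.2 over all libraries, with fold changes against vehicle of -0.03 (SE 0.11) after belinostat and 0.17 (SE 0.11) after GSK-J4 on the log2 scale.

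ADAMTS6 and ADAMTS10 are close relatives that act on fibrillin microfibrils. ADAMTS6 (chromosome 5, 65148738 to 65481920) had 205.6 to 260.6 counts in vehicle and 233.9 to 329.1 in belinostat libraries, and overlapping groups throughout. Its log2 fold change after belinostat was 0.29 (SE 0.11, DESeq2 adjusted p = 0.13), and without replicate 17 it was 0.36 (DESeq2 adjusted p = 0.0216). ADAMTS10 (chromosome 19, 8580240 to 8610735) had 423.2 to 473.0 counts in vehicle, 401.9 to 566.9 in belinostat and 402.4 to 467.3 in GSK-J4 libraries. Its largest difference was GSK-J4 against unstimulated cells (-0.28, SE 0.11, DESeq2 adjusted p = 0.131).

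**Figure D3:**
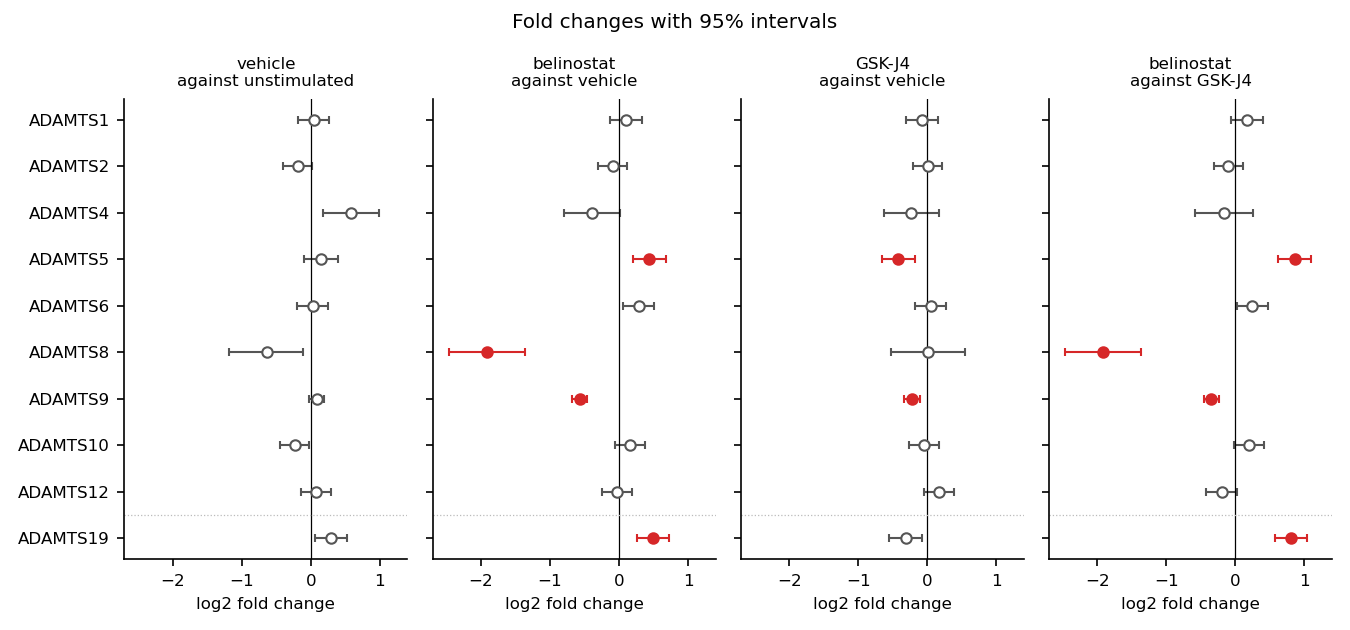
Log2 fold changes (points) with 95% intervals of the 9 genes and, under the dotted line, ADAMTS19, in 4 contrasts; filled red points passed DESeq2's adjusted p of 0.05 in a fit over all genes, which for ADAMTS8 with belinostat only describes values known when the genes were chosen. ADAMTS5 has filled points on both sides of 0 (0.44 after belinostat, -0.42 after GSK-J4), ADAMTS9 is filled below 0 for both compounds, and no point is filled in the contrast of vehicle with unstimulated cells.

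Counted over the 9 genes, the cytokine pulses left no call 2 weeks after DMSO. Vehicle against unstimulated cells called 0 of 9 genes with DESeq2 and with edgeR, while DESeq2 called 1.74% of 16240 genes tested. At an unadjusted DESeq2 p under 0.05, 3 of 9 passed (ADAMTS4, ADAMTS8 and ADAMTS10). The share of all genes at that looser threshold was not taken. The median log2 fold change of the 9 genes was 0.04, beside -0.005 over all genes tested. Counts with belinostat leave out ADAMTS8, whose low values were in view when the genes were chosen. Of the other 8 genes, belinostat against vehicle called ADAMTS5 higher and ADAMTS9 lower. Of 14209 genes tested, 6.26% were called, 3.12% higher and 3.13% lower. The median of all 9, ADAMTS8 included, was -0.03, beside 0.003 over all genes.

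GSK-J4 against vehicle called 2 of 9 genes (ADAMTS5 and ADAMTS9), both lower, beside 1.92% of 13197 genes in either direction and 0.818% lower. The median of the 9 genes was -0.05, beside -0.002 over all genes. With edgeR none of the 9 was called, beside 0.631% of 14415 genes. At an unadjusted edgeR p under 0.05, 2 of the 9 passed, and the share of all genes at that threshold was not taken. Against unstimulated cells, belinostat likewise called ADAMTS5 higher and ADAMTS9 lower (0.58 and -0.48 on the log2 scale), beside 10.3% of genes called, 5.51% higher and 4.77% lower. GSK-J4 against unstimulated cells called 0 of 9 with DESeq2 and with edgeR, while DESeq2 called 5.55% of 16747 genes. At an unadjusted DESeq2 p under 0.05, 5 of 9 passed, and the share of all genes at that looser threshold was not taken. Belinostat against GSK-J4 called ADAMTS5 higher and ADAMTS9 lower, beside 12.2% of 14717 genes, 6.18% higher and 6.01% lower. Because contrasts share libraries, these counts do not add up to separate observations.

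Among the 10 ADAMTS genes outside the 9, ADAMTS19 changed after belinostat. ADAMTS19 is a member whose substrates are little known, and it lies on chromosome 5 (129460281 to 129738683, plus strand). Vehicle libraries held 929.9, 1122.1, 879.3 and 857.5 normalized counts, belinostat libraries 1213.4, 1357.8, 1295.7 and 1456.7, and GSK-J4 libraries 905.2, 680.9, 795.5 and 665.6. All belinostat libraries, replicate 17 included, lay above all others. The log2 fold change was 0.49 against vehicle (SE 0.12, DESeq2 adjusted p = 0.00135), 0.78 against unstimulated cells (DESeq2 adjusted p = 7.89e-09) and 0.80 against GSK-J4 (DESeq2 adjusted p = 1.22e-09). Without replicate 17 ADAMTS19 was 0.53 above vehicle.

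With all 16 libraries the other 9 were not called in any contrast. ADAMTS7, which shares substrates with ADAMTS12, averaged 3276.2 counts in vehicle and 4368.9 in GSK-J4 cells, and these libraries did not overlap (log2 fold change 0.42, SE 0.19, DESeq2 adjusted p = 0.382). The fit on those 2 groups alone was the only alternative that called ADAMTS7 (0.41, DESeq2 adjusted p = 0.000629). ADAMTS13, ADAMTS14 and ADAMTS15 were measured at 151.5 to 393.8 counts. ADAMTS3, ADAMTS16, ADAMTS17 and ADAMTS18 averaged under 10 counts, and ADAMTS20 had no count in any library.

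ADAMTS8 and ADAMTS15 are neighbours that point away from each other, with starts 20036 bases apart, yet their counts separated. The ratio of ADAMTS8 to ADAMTS15 was 1.51, 1.47, 1.33 and 1.48 in vehicle and 0.224, 0.469, 0.468 and 0.449 in belinostat libraries. It was 2.26 ± 0.382 in unstimulated and 1.73 ± 0.254 in GSK-J4 cells (SD, n = 4). A ratio within a library does not depend on scaling, and the belinostat ratios lay below all others. ADAMTS15 itself was not called after belinostat (log2 fold change -0.13, SE 0.13, DESeq2 adjusted p = 0.732), and without replicate 17 its difference from vehicle was 0.02. Without that library ADAMTS15 was called higher than after GSK-J4 (0.26, DESeq2 adjusted p = 0.0277).

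The ratio of ADAMTS5 to its neighbour ADAMTS1 set the compounds apart in every library. It was 0.709, 0.729, 0.740 and 0.663 in vehicle, 0.937, 0.924, 0.854 and 0.896 in belinostat, and 0.602, 0.518, 0.563 and 0.544 in GSK-J4 libraries. Unstimulated libraries, at 0.598, 0.668, 0.73 and 0.635, overlapped both vehicle and GSK-J4 libraries and lay below those of belinostat. In replicate 17, where both genes were low for the group, the ratio was the highest of the 4. ADAMTS9 overlaps the antisense RNA ADAMTS9-AS2, which held 172.0 to 242.4 counts and was not called (log2 fold change after belinostat -0.04, SE 0.12, DESeq2 adjusted p = 0.946). Without strand in the counting, reads from the overlap cannot be assigned to either gene with certainty. Of the 16 nearest protein-coding neighbours of the 9 genes, 11 were tested after belinostat against vehicle, and 1 was called (PRICKLE2, next to ADAMTS9, log2 fold change 0.16, DESeq2 adjusted p = 0.00973), beside 6.26% of all genes. It was no longer called when vehicle replicate 13 (0.14), vehicle replicate 16 (0.15) or belinostat replicate 18 (0.16) was left out, with adjusted p up to 0.0851. Belinostat against GSK-J4 called 3 of 11 tested neighbours, all higher (N6AMT1, PRICKLE2 and MAGI1), beside 12.2% of all genes in either direction and 6.18% higher. GSK-J4 against vehicle called 0 of 10.

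**Figure D4:**
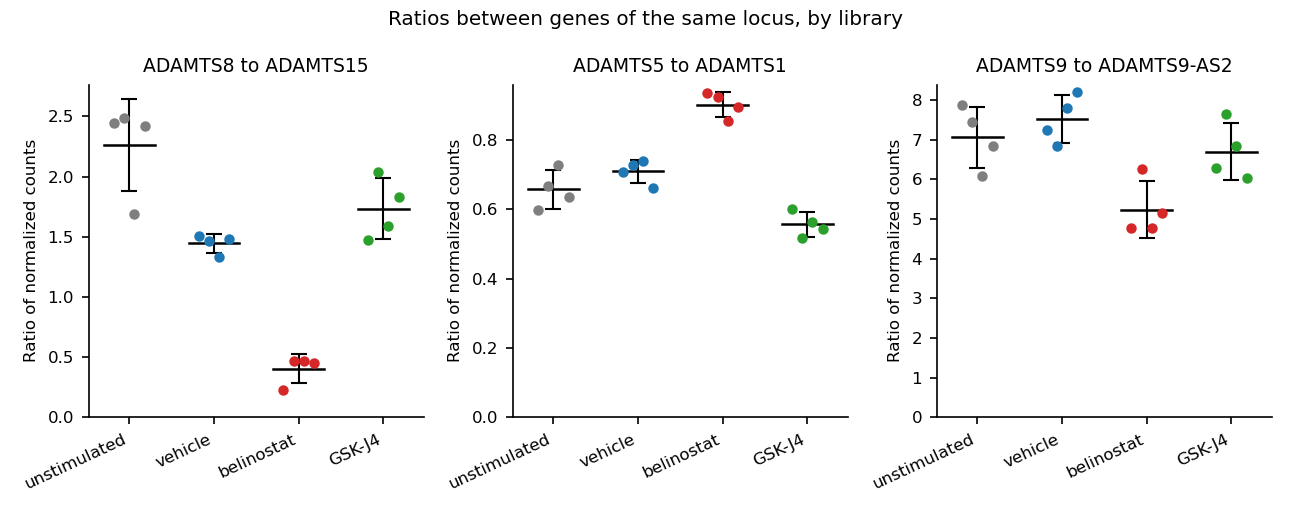
Ratio of normalized counts between genes of the same locus in each library (points), with group mean (line) and SD (bars, n = 4). Belinostat libraries have the lowest ADAMTS8 to ADAMTS15 ratios (0.224 to 0.469) and the highest ADAMTS5 to ADAMTS1 ratios (0.854 to 0.937).

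By profile over the 16 libraries, the genes closest to ADAMTS8 among 11741 with a mean of at least 50 counts were CCL2, ADH1B, COL5A3, NOD1 and FIBIN. The root mean square log2 difference from the centred ADAMTS8 profile was 0.451 for CCL2, a monocyte-attracting chemokine, and 0.547 for ADH1B, an alcohol dehydrogenase, against 1.09 for the spread of ADAMTS8 around its own mean. COL5A3, a chain of type V collagen, was at 0.561, NOD1, a sensor of bacterial peptidoglycan, at 0.577 and FIBIN at 0.628. CCL2 averaged 1325.4 counts in vehicle and 271.0 in belinostat cells, but 1204.0 in unstimulated cells, where ADAMTS8 was higher than in vehicle. ADH1B followed ADAMTS8 in that step too, with 13632.4 counts in unstimulated, 9006.2 in vehicle and 4617.1 in belinostat cells. These likenesses are a description and carry no test.

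Against vehicle, the RNAs of most listed substrates of the family were not called after either compound. Of 18 listed substrate genes, 14 were tested for belinostat against vehicle, with 1 called higher and 2 lower, beside 3.12% and 3.13% of all genes, and a median log2 fold change of 0.06, beside 0.003 over all genes. LTBP1, which anchors latent TGF-beta in the matrix, rose from 2125.4 to 2364.9 counts in vehicle to 2661.5 to 3163.9 in belinostat libraries (log2 fold change 0.38, SE 0.07, DESeq2 adjusted p = 2.41e-06). FN1, fibronectin, fell from 42872.8 to 48834.5 counts to 36081.9 to 37678.8 (-0.34, SE 0.06, DESeq2 adjusted p = 6.29e-07), and COL1A1, a chain of type I collagen, fell by 0.29 (SE 0.08, DESeq2 adjusted p = 0.0089). Without replicate 17 these changes against vehicle were 0.34 for LTBP1, -0.33 for FN1 and -0.20 for COL1A1. GSK-J4 had 3 substrates called higher and none lower: FN1 (0.29), COL1A2 (0.22) and COL3A1 (0.22), beside 1.92% of all genes called. The median of the 14 tested was 0.11, beside -0.002 over all genes. The calls of COL1A1 after belinostat and of COL1A2 after GSK-J4 were lost with edgeR, and that of COL3A1 was lost in 6 alternatives. FN1 lay on opposite sides of vehicle in the 2 compound groups, with no overlap of libraries. Belinostat against unstimulated cells called 3 of 14 tested substrates higher and 2 lower, beside 5.51% and 4.77% of all genes. Belinostat against GSK-J4 called 3 of 15 higher and 4 lower, beside 6.18% and 6.01%. All contrasts with belinostat share its libraries.

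VCAN, versican, is the substrate shared by the abundant hyalectanases. It held 2955.0 to 4034.8 counts in unstimulated, 3979.5 to 6135.5 in vehicle, 5135.2 to 10513.2 in belinostat and 3537.6 to 4354.0 in GSK-J4 libraries. The highest library was replicate 17. VCAN was called higher after belinostat against unstimulated cells (log2 fold change 1.08, SE 0.20, DESeq2 adjusted p = 4.28e-06) and against GSK-J4 (0.90, DESeq2 adjusted p = 0.000165), but not against vehicle (0.45, SE 0.20, DESeq2 adjusted p = 0.214, and 0.23 without replicate 17). Without replicate 17 the 2 called differences were 0.86 and 0.68. Vehicle cells already lay 0.63 above unstimulated cells (SE 0.20, DESeq2 adjusted p = 0.0771). That difference was called in the fit on those 2 groups alone and without vehicle replicate 13.

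Of 12 genes for inhibition, clearance and maturation, belinostat against vehicle called 2 lower and none higher, beside 6.26% of all genes called, with a median of -0.13 on the log2 scale. TIMP3 fell from 13568.9 to 14901.7 counts in vehicle to 10902.7 to 13431.8 in belinostat libraries (-0.19, SE 0.06, DESeq2 adjusted p = 0.0371), a call lost in 7 of 12 alternatives, edgeR and the fit without replicate 17 among them (-0.13, DESeq2 adjusted p = 0.0903). FURIN, which removes the propeptide, fell from 2891.3 to 3123.8 counts to 2354.3 to 2585.3 (-0.26, SE 0.05, DESeq2 adjusted p = 3.35e-06) and by 0.24 without replicate 17. The ratio of ADAMTS5 to TIMP3 was 1.57 ± 0.0937 in vehicle, 2.40 ± 0.326 in belinostat and 1.17 ± 0.0363 in GSK-J4 cells (SD, n = 4), and the libraries of these groups did not overlap.

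After GSK-J4, 11 of these 12 genes were tested and 1 was called, beside 1.92% of all genes. A2M, alpha-2-macroglobulin, a protease trap, rose from 3328.7 to 4980.8 counts in vehicle to 7271.0 to 10054.8 in GSK-J4 libraries (1.04, SE 0.30, DESeq2 adjusted p = 0.0346), a call lost with edgeR and in 7 of 8 fits that left out a library. This call of A2M held in the fit on those 2 groups alone. A2M libraries of belinostat held 885.0 to 2917.2 counts and did not overlap vehicle (-0.83, SE 0.30, DESeq2 adjusted p = 0.0782), and without replicate 17 A2M was called (-0.57, DESeq2 adjusted p = 0.021). A2M after belinostat against GSK-J4 was -1.88 (SE 0.30, DESeq2 adjusted p = 3.12e-08). Among the 7 ADAMTS-like genes, which resemble the proteases but lack the catalytic domain, none was called against vehicle for either compound, with 5 tested in each contrast. ADAMTSL4 was called higher after belinostat against unstimulated cells (0.18, DESeq2 adjusted p = 0.0434, a call lost in 8 alternatives) and against GSK-J4 (0.21, DESeq2 adjusted p = 0.0147, a call lost in 5 alternatives).

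**Figure D5:**
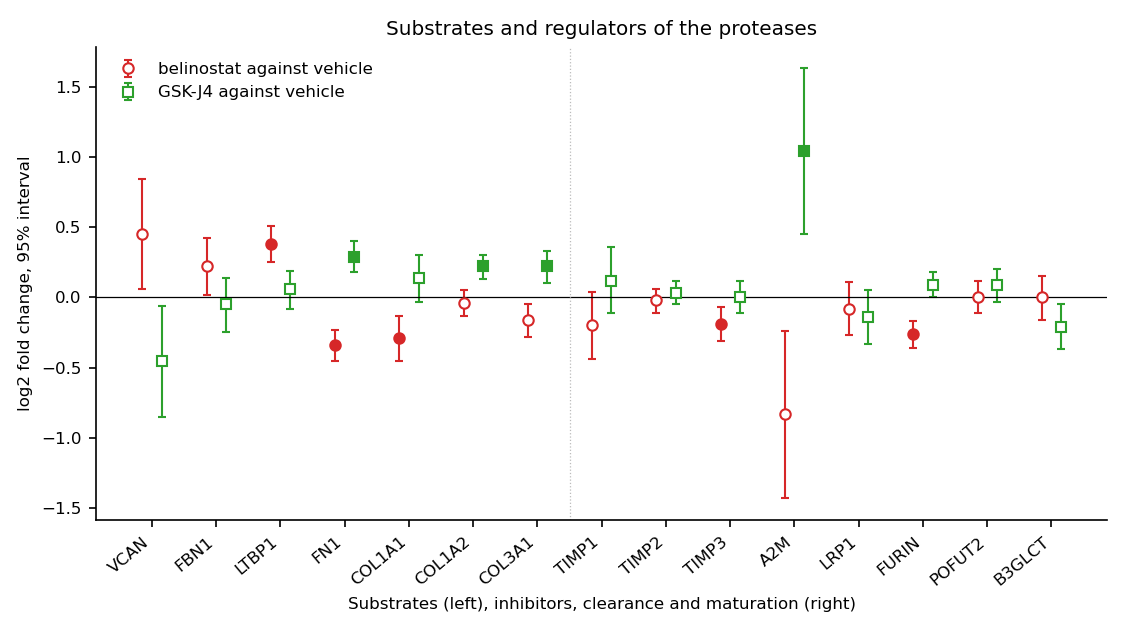
Log2 fold changes against vehicle with 95% intervals for 7 substrates (left of the dotted line) and 8 inhibitors, clearance and maturation genes (right); circles show belinostat, squares GSK-J4, and filled symbols passed DESeq2's adjusted p of 0.05 in the fit over all genes. FN1 is filled on both sides of 0 (-0.34 and 0.29), and TIMP3 (-0.19) and FURIN (-0.26) are filled below 0 for belinostat.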

How the data were processed

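RNA-seq was measured in 16 libraries of Ccd18-Co, 4 in each of 4 groups taken from the labels. For unstimulated libraries, column names say none and titles DMSO, so these were matched by replicate number. The authors deposited 1 estimated count per symbol and library, made with kallisto 0.48.0. The submitters' processing notes also name FastQC 0.11.9, MultiQC 1.14 and the build hg38. The transcriptome release, the summing of transcripts to symbols and the use of strand were not stated, so overlapping genes and near-identical transcripts may share reads. Of the values, 28% had decimals, and they were rounded here to whole numbers. No per-sample column was left out (0 unused).

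Groups were compared by the Wald test of DESeq2 1.42.0 in R 4.3.3, fitted to all symbols and all 16 libraries on group alone, with default size factors and independent filtering and unshrunken fold changes. Calls needed an adjusted p (Benjamini-Hochberg) below 0.05. Size factors also gave the normalized counts. Levels of different genes were ranked per kilobase of exon in GENCODE (GRCh38), matched by symbol. Ratios of normalized counts between 2 genes were not divided by length and were compared only between libraries. Depths of 14418942 to 19476420 counts per library limit low genes, and errors given are SD over libraries. Alternatives were edgeR 4.0.16 (quasi-likelihood test), total-count size factors, a filter of 10 counts in 4 libraries, fits on the 2 groups compared, and leaving out each library. The scripts were tested on simulated data.

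The 9 genes and all gene lists were chosen with earlier results of these data known. The text names every ADAMTS gene and members of the lists of ADAMTS-like genes, substrates, regulators, neighbours and markers, and, for ADAMTS8, the 5 nearest profiles on log2(normalized count + 1).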

Additional observations from a re-analysis of the deposited data

Results flagged for a closer look

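In 4 of 36 groups of 4 libraries, a single library lay further from the rest than Dixon's test allows at the 95% level. Chance alone flags about 1 group in 20. All 4 were belinostat groups and low values. Replicate 17 was low for ADAMTS1 (22922.3 normalized counts, gap 0.903 of the group's range), ADAMTS2 (3280.3, gap 0.867) and ADAMTS8 (51.55, gap 0.838). Replicate 19 was low for ADAMTS4 (28.05, gap 0.884), where the counts are small. For ADAMTS1 and ADAMTS2, leaving out replicate 17 moved the log2 fold change against vehicle from 0.10 to 0.24 and from -0.09 to 0.04. The cause of the low values was not tested.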

How the results depend on the processing

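Over 12 alternatives in each of 6 contrasts, the 9 genes gave 648 values, of which 621 kept direction and side of the threshold, 14 lost a call, 13 gained one and 0 reversed a called direction. The number of the 9 called, ADAMTS8 included, moved by over 1.5 times, or from 0, in these cases. Fits on the groups compared alone called 1 (ADAMTS8) for vehicle against unstimulated and 1 (ADAMTS8) for GSK-J4 against unstimulated, where all 16 libraries gave 0. Of all genes, these fits called 1.89% and 6.35%. EdgeR called 0 for GSK-J4 against vehicle, in place of 2, and 0.631% of all genes, in place of 1.92%. Leaving out 1 library at a time gave 2 to 5 for belinostat against vehicle, 0 to 2 for GSK-J4 against vehicle, 3 to 5 for belinostat against unstimulated, 0 to 2 for GSK-J4 against unstimulated and 3 to 6 for belinostat against GSK-J4. Every count with belinostat includes ADAMTS8, whose low values were in view when the genes were chosen, and the 648 values include it too. Such counts are only a description beside the shares of all genes. The shares of all genes called in these fits follow in the same order. They were 4.61% to 8.27%, 0.934% to 1.32%, 6.53% to 13%, 4.25% to 6.31% and 8.68% to 14.6%. The highest counts with belinostat came without replicate 17, which added ADAMTS1 and ADAMTS6 in all 3 contrasts and ADAMTS10 against GSK-J4 (log2 fold change 0.30). Without replicate 17, 8.27% of all genes were called against vehicle, 14.6% against GSK-J4 and 9.69% against unstimulated cells. With all 16 libraries these shares were 6.26%, 12.2% and 10.3%. The lowest count for belinostat against vehicle came without vehicle replicate 16, belinostat replicate 18 or belinostat replicate 20, each of which removed ADAMTS5. Without vehicle replicate 15 or GSK-J4 replicate 23, GSK-J4 against vehicle called 0, and without unstimulated replicate 1, GSK-J4 against unstimulated called 2 (ADAMTS5 and ADAMTS10). Apart from the smaller number of libraries, the cause was not tested. Depth limits ADAMTS4 and the 5 ADAMTS genes at or near 0. No paired analysis was possible because the groups share no replicate numbers.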
